A study of Mus musculus with 48 samples.

Results

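Cholecystokinin is a peptide of gut and brain. In the amygdala it is made by a class of inhibitory interneurons and by some excitatory neurons, and it has long been studied in relation to fear and anxiety. Its precursor is encoded by Cck. Neurons cut, sulfate and amidate the precursor and release the peptide, which acts on 2 receptors, CCKAR (gene Cckar), which prefers the sulfated peptide, and CCKBR (gene Cckbr), the main form in the forebrain, which also binds gastrin. DNA methylation is a mark on the cytosine of CpG pairs, and methyl-CpG-binding domain (MBD) capture pulls down DNA fragments that carry it, so more reads at a locus stand for more captured, methylated DNA.

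The Cck neighbourhood and its receptors comprised 16 of the 187695 methylated loci counted in the mouse amygdala. Of these, 9 lay in a window of 50 kb around Cck (GRCm38, chr9:121460000-121510000), 6 lay in or within 5 kb of Cckar (chr5:53698485-53707704) and 1 lay in Cckbr (chr7:105425676-105436339). Members were taken by position, but the Cck window was picked by a measured value: it holds the locus to which the study assigned a Tph2-by-separation interaction of Cck, called the study's locus here. The values of that locus in the contrasts that picked it are therefore a description and carry no test.

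The libraries came from adult male mice at 4 months of age, with a strain background labelled C57BL/6. Their parents came from a line backcrossed to C57BL/6N. The mice were Tph2+/+ (wildtype), Tph2+/- (heterozygous) or Tph2-/- (homozygous null mutant) for tryptophan hydroxylase 2, the enzyme that starts serotonin synthesis in neurons. The null mutation is constitutive, so it is not limited to a cell type or an age. Litters had either spent 3 h of each postnatal day between 2 and 15 away from the dam, which is called maternal separation (MS), or been reared as controls (C). Each genotype was studied in C and in MS, and each of these 6 groups, written as Tph2+/+ C or Tph2-/- MS for example, held 8 libraries, 1 per mouse. All offspring had Tph2+/- parents, and which mice shared a litter was not given in the labels. The amygdala identity of the tissue could not be checked with marker genes, since counts of methylated DNA hold no expression.

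Libraries held 7.72 to 14.1 Mcounts, M being the SI prefix mega. The 2 Tph2-/- MS libraries of lowest total (replicates 3 and 7) were left out of the fits, which leaves 46 libraries. Sample numbers S18 to S41 are all MS and the others all C, so MS and the numbering cannot be told apart, and runs of numbers can be compared within MS and within C only. Levels are given as CPM, the count of a locus relative to 1 Mcount of its library, after TMM scaling. The SD and the number of libraries stand beside most group means. Ranges of group means and means over runs of sample numbers are given without an SD. Fold changes are on the log2 scale. Their standard error (SE) was taken as the absolute fold change over the square root of the F of edgeR's quasi-likelihood test.

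The sequences that the results turn on are shown in the order in which they are described, with each CpG in capitals, on the plus strand of GRCm38. Stretches of 300 bases with the most CpG outside untranslated exons were taken from 4 loci: the study's locus, the locus over the last coding exon of Cck, the locus of highest level in Cckar and the locus in Cckbr. They show how sparse the CpG pairs are in the first and how dense in the last.

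Study's locus, chr9:121478116-121478415: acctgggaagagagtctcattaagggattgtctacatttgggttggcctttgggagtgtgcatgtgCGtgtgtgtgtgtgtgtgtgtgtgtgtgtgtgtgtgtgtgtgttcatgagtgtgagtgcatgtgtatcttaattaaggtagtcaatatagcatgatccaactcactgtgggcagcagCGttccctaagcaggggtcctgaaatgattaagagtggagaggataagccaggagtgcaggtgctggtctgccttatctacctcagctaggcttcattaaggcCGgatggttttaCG
Cck coding exon locus, chr9:121490068-121490367: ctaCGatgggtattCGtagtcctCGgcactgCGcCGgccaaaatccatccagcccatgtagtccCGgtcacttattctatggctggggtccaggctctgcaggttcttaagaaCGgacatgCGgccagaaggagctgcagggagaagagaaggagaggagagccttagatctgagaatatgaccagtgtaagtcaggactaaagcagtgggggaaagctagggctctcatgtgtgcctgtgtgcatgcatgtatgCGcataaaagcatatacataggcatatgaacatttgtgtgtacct
Cckar coding exon locus, chr5:53699997-53700296: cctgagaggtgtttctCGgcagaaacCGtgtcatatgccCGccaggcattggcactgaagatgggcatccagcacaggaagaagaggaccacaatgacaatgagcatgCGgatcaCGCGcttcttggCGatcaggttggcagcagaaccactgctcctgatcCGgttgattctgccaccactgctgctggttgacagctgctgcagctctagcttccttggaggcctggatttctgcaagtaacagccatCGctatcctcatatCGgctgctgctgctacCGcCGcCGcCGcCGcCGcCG
Cckbr coding exon locus, chr7:105434881-105435180: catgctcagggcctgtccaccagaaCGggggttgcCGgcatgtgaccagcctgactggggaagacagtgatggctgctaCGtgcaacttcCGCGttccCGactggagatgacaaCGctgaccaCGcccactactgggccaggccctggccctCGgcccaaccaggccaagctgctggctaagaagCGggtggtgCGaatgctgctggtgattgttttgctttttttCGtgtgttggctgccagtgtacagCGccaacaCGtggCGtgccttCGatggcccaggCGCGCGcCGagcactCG

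The study's locus (chr9:121477914-121478574) was 661 bp wide, held 6 CpG and lay between genes, 2995 bp past the end of Trak1 and 11250 bp from the gene body of Cck on its 3′ side. Trak1 encodes an adaptor that links mitochondria to kinesin for transport along axons. Of all loci, 5.77% held fewer CpG. The longest run of alternating T and G, or C and A, in the locus was 50 bp, and a shorter such run lies in the printed stretch. Runs of at least 30 such bases were present in 12.9% of all loci and in 4 of the 16 members.

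The other loci of the window lay over exons of Trak1 (4 loci at chr9:121460204-121475088), between the genes (chr9:121485153-121486190, 7 CpG), over the last coding exon of Cck (chr9:121489651-121490568, 17 CpG) and in introns of Gm38661, a long non-coding RNA gene that overlaps Cck on the opposite strand (chr9:121496593-121497504 and chr9:121503090-121503867, with 17 and 12 CpG). MBD counts carry no strand, but no locus lay where these genes overlap (chr9:121491658-121495694). Which gene a nearby locus bears on cannot be told from its counts. Just outside the window, the next loci lay 4914 bp below it (mean 8.73 CPM) and 2043 bp above it (mean 2.48 CPM). For the receptors the next loci lay 308 to 7188 bp beyond the flanks, with means of 1.78 to 2.01 CPM.

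No locus covered the promoter of Cck. The nearest was 649 bp from its 300-base RefSeq promoter window (GRCm38.p6), which is 250 bases before to 50 after the gene start and held 10 CpG, and the promoter of Cckbr (15 CpG) lay 7455 bp from the nearest locus. Of 32817 promoters in RefSeq, 10.5% overlapped a locus. The 250 bases before the gene start of Cck are printed to show the stretch that the capture left uncounted, with the letters TGCGTCA, a variant of the cAMP response element, in capitals. On the strand of the gene, at chr9:121495695-121495944, they read as follows.

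Cck promoter, minus strand: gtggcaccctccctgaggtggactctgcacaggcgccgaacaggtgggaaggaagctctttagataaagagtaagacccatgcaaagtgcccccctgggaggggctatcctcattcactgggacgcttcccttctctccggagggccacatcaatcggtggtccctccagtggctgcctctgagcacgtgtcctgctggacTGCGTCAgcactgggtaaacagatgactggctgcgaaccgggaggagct

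These letters lay 42 bp before the gene start and occurred, on either strand, in 2.11% of promoters. The full palindrome TGACGTCA was in neither promoter (1.79% of all promoters held it), and the E-box letters CACGTG were in both (7.15% of all). A match of letters is a description only, and no counts covered these bases.

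Levels were higher at loci with more CpG, and CPM is not divided by the width of a locus. Of the 16 members the study's locus had the lowest mean, 1.54 ± 0.57 CPM (SD, n = 46), and 11.4% of all loci had a lower one. Its mean count per library was 16.9. The Cckbr locus had the highest mean, 12.6 ± 2.76 CPM (SD, n = 46) with 86 CpG, above 96.1% of all loci. The Cckar coding exon locus was next with 7.66 ± 1.26 CPM (SD, n = 46) and 49 CpG. Over the 16 loci Pearson's r between CpG number and mean level was 0.95 (Spearman's rho 0.73), while over all 187695 loci r was 0.094 and rho 0.78. The Cckbr locus was also wider, 2508 bp beside 661 bp at the study's locus. Per kb of width their means were 5.03 and 2.33 CPM, and per CpG 0.147 and 0.257 CPM. The parts of width and CpG number were not tested apart. Loci are not independent replicates, and all these levels come from the same libraries.

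**Figure D1:**
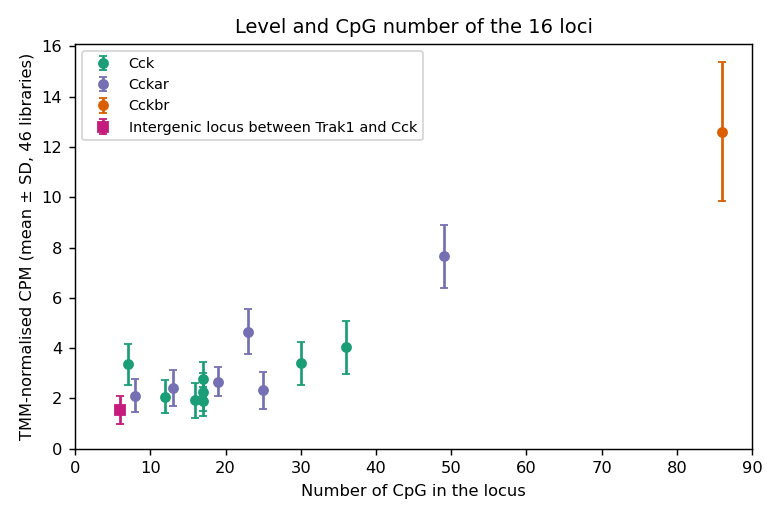
Mean level (TMM-normalised CPM ± SD over 46 libraries) of the 16 loci against their number of CpG. Levels are not divided by locus width. The Cckbr locus (86 CpG, 12.6 CPM) and the Cckar coding exon locus (49 CpG, 7.66 CPM) stand highest and the study's locus (6 CpG, 1.54 CPM) lowest.

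In the Cck neighbourhood, the study's locus had the widest ratio of highest to lowest group mean, 1.57, beside 1.17 to 1.55 at the other 8 loci. The study's locus was picked for a difference between group means and had the lowest mean count of the window. Its rank is therefore a description and carries no test. In Tph2+/+ C mice its level was 1.78 ± 0.60 CPM (SD, n = 8), from 0.99 to 2.62 with a median of 1.89. In Tph2+/+ MS mice it was 1.15 ± 0.31 (SD, n = 8), from 0.62 to 1.48. In Tph2+/- C mice it was 1.37 ± 0.68 (SD, n = 8), from 0.72 to 2.89. The ranges of C and MS mice overlapped in each of these genotypes.

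In Tph2+/- MS mice the level was 1.81 ± 0.32 CPM (SD, n = 8), from 1.24 to 2.22. In Tph2-/- C mice it was 1.52 ± 0.60 (SD, n = 8), from 0.67 to 2.49. In Tph2-/- MS mice it was 1.64 ± 0.65 (SD, n = 6), from 1.06 to 2.82, and the libraries left out stood at 1.30 and 1.07. Tph2+/+ MS and Tph2+/- MS overlapped by a single library of the latter, at 1.24 CPM. Counts were 6 to 32 over the 48 libraries, and counting error alone came to 21.8% to 29.98% of a group's mean. The SD was no larger than that in Tph2+/+ MS (26.8% of the mean) and Tph2+/- MS (17.6%), and larger in the other groups (33.98% to 49.5%).

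**Figure D2:**
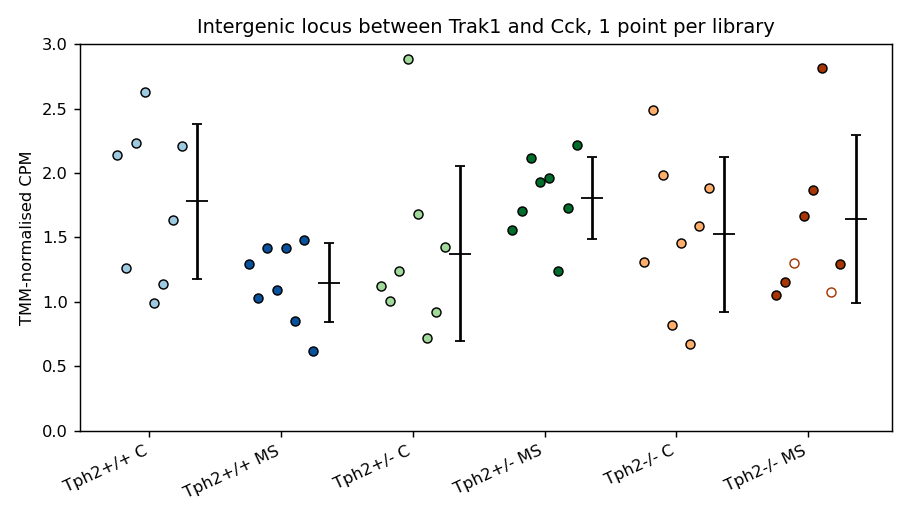
Level of the study's locus in every library (TMM-normalised CPM) by group, with mean ± SD to the right of each group. Open points are the 2 libraries left out. Tph2+/+ MS sits lowest (mean 1.15 CPM) and Tph2+/- MS (1.81) and Tph2+/+ C (1.78) highest.

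The question of the study was whether MS acted differently by genotype. GE1, by how much the MS difference of Tph2+/- mice exceeds that of Tph2+/+ mice, was 1.03 (SE 0.38) on the log2 scale. GE2, the same for Tph2-/- against Tph2+/+ mice, was 0.74 (SE 0.39). The MS difference was -0.63 (SE 0.27) in Tph2+/+ and 0.40 (SE 0.27) in Tph2+/- mice. These 4 values chose the locus or share its libraries, and no test is given. At the study's limits (a log2 fold change beyond 0.2 with an unadjusted p under 0.01), 0.626% of all loci were called for GE1 and 0 loci after Benjamini-Hochberg adjustment (p under 0.05). The study set these limits on results of DESeq2 at default settings. Here they act on edgeR's results, so its fold changes and calls are not on the same measure.

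The MS difference in Tph2-/- mice used libraries that had not entered the GE1 contrast. Tph2-/- mice did enter the study's correlation of Cck methylation with expression over all conditions, by which it singled out Cck. Their values are thus not fully independent of that choice. The MS difference was 0.10 (SE 0.28) at an adjusted p of 0.96 in edgeR, with means of 1.64 and 1.52 CPM (n = 6 and 8). A 2-sided exact permutation test of log2(CPM + 0.1) over these libraries gave a difference of 0.12 and p = 0.68. Without S18 to S26, which leaves 3 Tph2-/- MS libraries, the difference was 0.36 (SE 0.34, unadjusted p = 0.29 in edgeR), and with the slope of each library on CpG density as a covariate it was 0.18. Over genotypes the MS difference was -0.04 (SE 0.16), and the genotype differences from Tph2+/+ mice were 0.13 (SE 0.19) in Tph2+/- and 0.15 (SE 0.20) in Tph2-/- mice. These 3 contrasts share libraries with GE1 and are given without a test.

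In Tph2+/+ mice the C libraries averaged 1.73 CPM (S1 to S17, n = 6) and 1.92 (S42 to S48, n = 2), and the MS libraries 1.25 (S18 to S26, n = 3) and 1.09 (S27 to S41, n = 5). In Tph2+/- mice the C libraries averaged 1.44 (n = 6) and 1.17 (n = 2) and the MS libraries 1.63 (n = 2) and 1.87 (n = 6), in the same order of runs. In Tph2-/- mice the C runs averaged 1.61 and 1.38 and the MS runs 1.29 and 1.99. These libraries include those whose values chose the locus, so their means are a description. Leaving out each of the 32 libraries of GE1 in turn gave differences of group means from 0.91 to 1.18.

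The neighbours of the study's locus on each side, named after their values were seen, had GE1 values below 0. The Trak1 exon locus (chr9:121474314-121475088) had GE1 of -0.35 (SE 0.34) and the intergenic locus on the Cck side (chr9:121485153-121486190) had -0.27 (SE 0.26), with adjusted p of 1.0 in edgeR for both. The rest of the window mostly had the other sign. GE1 was -0.21 (SE 0.26) at its first Trak1 locus and above 0 at all loci not yet named, from 0.08 (SE 0.26) to 0.43 (SE 0.36). Over 46 libraries Pearson's r between the study's locus and the 15 other members ranged from -0.17 to 0.21, and between loci next to each other in the window from -0.14 to 0.27. These correlations are descriptions over the same libraries.

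The locus of highest level in the window lay over a coding exon of Trak1 (chr9:121472048-121473244, 36 CpG). Group means ran from 3.52 ± 0.72 CPM in Tph2-/- C (SD, n = 8) to 4.51 ± 1.36 in Tph2+/- MS (SD, n = 8), and every group overlapped the others. Summed over the 8 loci of the window other than the study's locus, group means ran from 20.4 ± 1.85 (SD, n = 8) in Tph2-/- C to 22.3 ± 3.03 CPM (SD, n = 8) in Tph2+/+ C. The sums of all groups overlapped.

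The locus over the last coding exon of Cck, also named after its values were seen, was the only locus inside the Cck gene. In Tph2+/+ mice C stood at 2.44 ± 0.54 CPM and MS at 2.13 ± 0.77 (SD, n = 8 each). In Tph2+/- mice they were 2.26 ± 0.64 in both C and MS (SD, n = 8 each). In Tph2-/- mice C stood at 1.88 ± 1.09 (SD, n = 8) and MS at 2.63 ± 0.77 (SD, n = 6), with overlapping ranges of 0.87 to 4.35 and 1.54 to 3.44. GE2 was 0.67 (SE 0.34, unadjusted p = 0.050, adjusted p = 1.0 in edgeR) and did not pass the limits.

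At the remaining loci of the window, the Gm38661 intron locus nearest to the Cck start, 899 bp before it, had group means of 2.52 to 3.16 CPM, and the one farther upstream had 1.57 to 2.43 CPM. The first Trak1 locus of the window (30 CpG) had group means of 3.10 to 3.62 CPM, the second (16 CpG) 1.57 to 2.18 CPM and the fourth (17 CpG) 1.68 to 2.08 CPM. The intergenic locus on the Cck side, with only 7 CpG, had a higher level than most of the window, 2.89 to 3.57 CPM. None of these 6 loci passed the limits in any of the 8 contrasts.

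**Figure D3:**
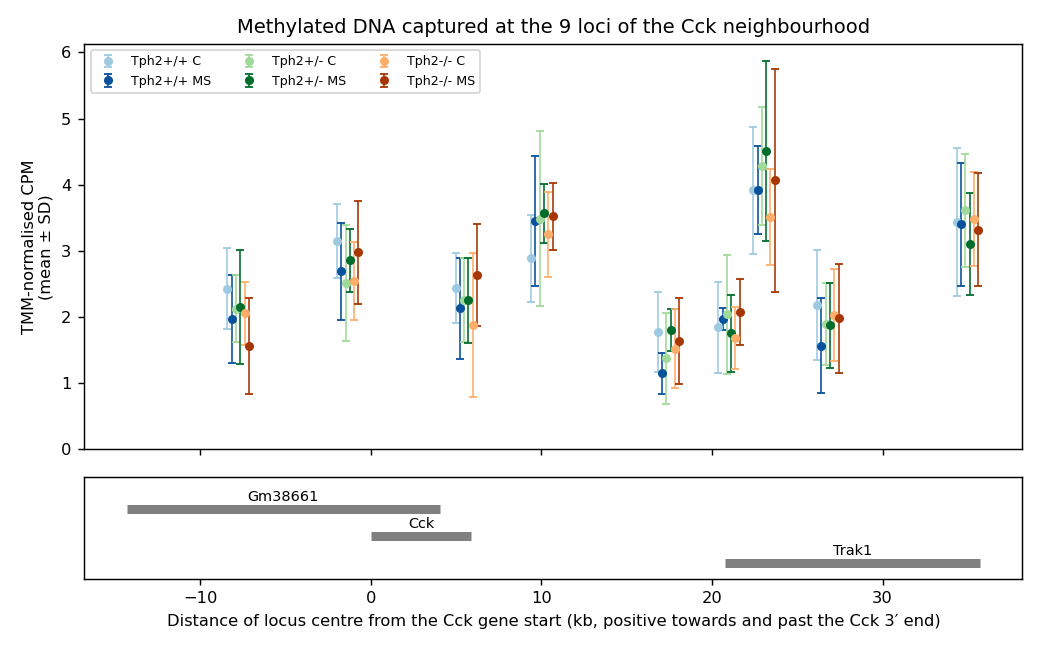
Mean ± SD of the level (TMM-normalised CPM) of the 9 loci of the Cck window in the 6 groups, against the distance of the locus centre from the Cck gene start in kb. Grey bars are the genes. No locus lies over the Cck start, and the study's locus, between Cck and Trak1, has the lowest mean of the 9 (1.54 CPM over all groups).

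Of the 16 members, 1 passed the limits for GE1, the study's locus itself, against 0.626% of all loci, and the rule had used that contrast. For MS in Tph2+/+ mice 1 other member passed, the Cckar coding exon locus, against 1.31% of all loci. None of the 15 members other than the study's locus passed for GE2 (0.558% of all loci), for MS over genotypes (3.63%), for MS in Tph2+/- (0.779%) or Tph2-/- mice (1.48%), or for Tph2+/- (0.546%) and Tph2-/- (0.748%) against Tph2+/+ mice.

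For the 15 members other than the study's locus, that is 1 of 120 tests past the limits. At an unadjusted p under 0.05, 3 of the 120 passed (2.5%), against 5.61% of the tests over all loci. At an adjusted p under 0.05, none passed in edgeR or in DESeq2, where 0.0841% of the tests over all loci did. In DESeq2 5 of the 120 had an unadjusted p under 0.05, against 6.09% over all loci, and 13 had no adjusted p. Of all loci, adjusted p under 0.05 was reached in edgeR by 0.0128% for MS over genotypes, 0.00213% for Tph2+/- and 0.0139% for Tph2-/- against Tph2+/+ mice, and by none for the other contrasts. The median log2 difference of the 15 members was 0.08 for GE1 and -0.01 for GE2, beside -0.01 and 0.01 over all loci.

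**Figure D4:**
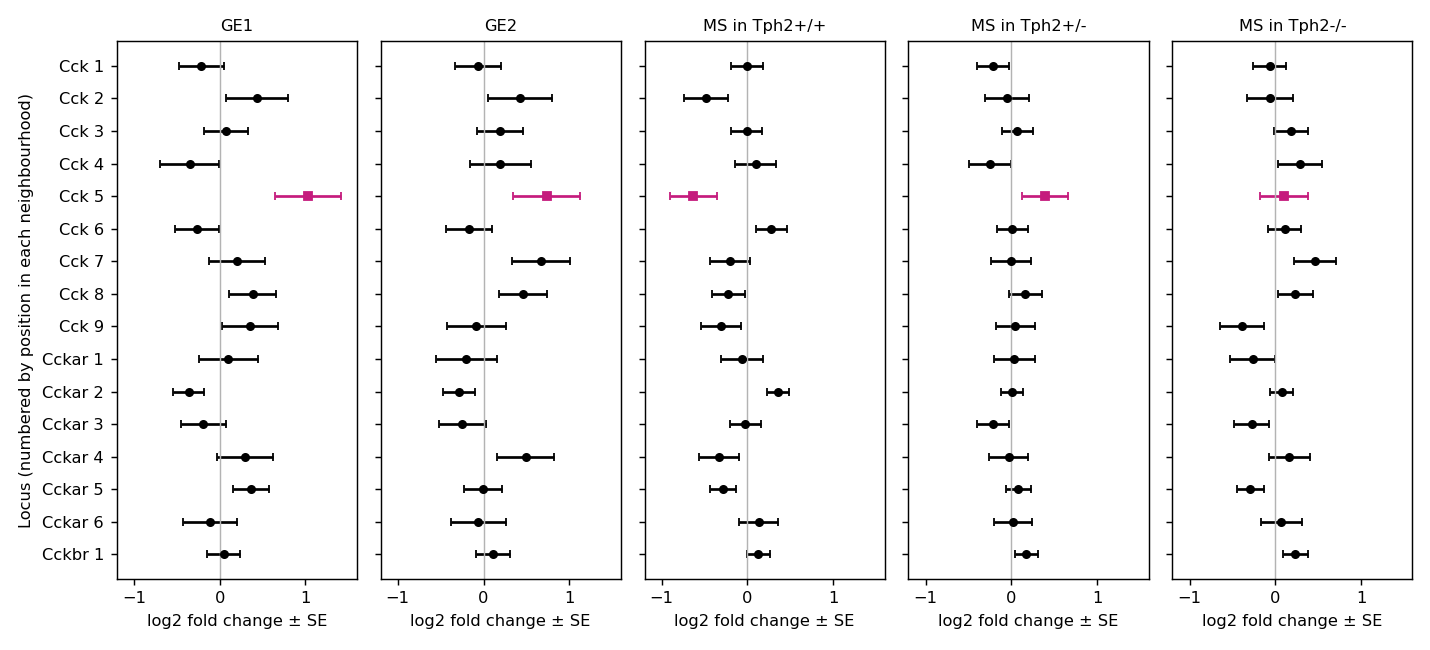
Log2 fold change ± SE of the 16 loci in 5 contrasts, loci numbered by position within each neighbourhood; the square is the study's locus (Cck 5), which chose the window. Its GE1 value is 1.03, and the other 15 lie between -0.36 and 0.43.

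Cckar, on the minus strand of chromosome 5, encodes a receptor of the Gq class that is best known in the gut and in some hindbrain and forebrain neurons. Of its 6 loci, 4 lay over coding exons, 1 lay 934 bp before the gene start and 1 lay 3782 bp past the end. Its coding exon locus at chr5:53699024-53701069, at the 3′ end of the gene, had 8.96 ± 1.55 CPM in Tph2+/+ MS (SD, n = 8; lowest 7.34, median 8.25, highest 11.5) against 6.98 ± 0.88 in Tph2+/+ C (SD, n = 8; lowest 5.74, median 7.16, highest 8.39). The groups overlapped. The log2 fold change was 0.36 (SE 0.13), at an unadjusted p of 0.0056, and the adjusted p was 0.76 in edgeR's quasi-likelihood test.

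In the other genotypes the means of C and MS were closer. In Tph2+/- mice it was 7.34 ± 1.09 in C and 7.29 ± 1.27 in MS (SD, n = 8 each), and in Tph2-/- mice 7.53 ± 1.04 in C (SD, n = 8) and 7.91 ± 0.64 in MS (SD, n = 6). GE1 was -0.36 (SE 0.18, unadjusted p = 0.051, adjusted p = 1.0 in edgeR). The MS differences of Tph2+/+ and Tph2+/- mice thus did not differ past the limits. Within Tph2+/+ MS, libraries S18 to S26 averaged 9.72 (n = 3) and S27 to S41 8.51 CPM (n = 5). Without S18 to S26 the fold change was 0.28 with an unadjusted p of 0.047, no longer past the limits.

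A second Cckar coding exon locus, at chr5:53704779-53706546 with 23 CpG, averaged 4.66 ± 0.89 CPM (SD, n = 46). Averaged over C and MS, Tph2+/- mice had a log2 difference from Tph2+/+ mice of 0.22 (SE 0.10, unadjusted p = 0.036, adjusted p = 1.0 in edgeR). The means of Tph2+/+ mice were 4.75 ± 0.91 in C and 3.89 ± 0.63 in MS, and those of Tph2+/- mice 4.87 ± 0.57 in C and 5.18 ± 1.18 in MS (SD, n = 8 each), and the groups overlapped. The other Cckar loci had group means of 2.28 to 2.85 CPM (coding exon, 19 CpG), 1.93 to 2.68 (coding exon, 25 CpG), 2.26 to 2.58 (before the gene start, 13 CpG) and 1.84 to 2.26 (past the end, 8 CpG), and none passed the limits. Summed over the 6 Cckar loci, the group means ran from 21.4 to 22.4 CPM.

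Cckbr, on the plus strand of chromosome 7, encodes the receptor of the cortex, hippocampus and amygdala. Its single locus (chr7:105433235-105435742) covered coding exons over 2508 bp, and held a run of 51 alternating T and G, or C and A, bases. In Tph2+/+ mice it had 12.004 ± 1.41 CPM in C and 13.1 ± 2.66 in MS (SD, n = 8 each). In Tph2+/- mice it had 11.3 ± 2.12 in C and 12.7 ± 2.14 in MS (SD, n = 8 each), and in Tph2-/- mice 12.4 ± 1.70 in C (SD, n = 8) and 14.6 ± 5.53 in MS (SD, n = 6). All MS groups overlapped their C groups.

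Over genotypes the MS difference of the Cckbr locus was 0.18 (SE 0.08, unadjusted p = 0.027, adjusted p = 0.34 in edgeR), and it did not pass the limits. The highest library, Tph2-/- MS replicate 2, stood at 24.8 CPM, while the next stood at 17.6. In an alternative chosen after seeing the data, the MS difference of group means of log2(CPM + 0.1) was 0.154 with this library and 0.099 without it. In that library loci rich in CpG were also raised: the slope of log2 counts on CpG density was 0.24, and the other libraries of the fit lay between -0.11 and 0.16. Among MS mice, both the mean level and the mean slope were higher in sample numbers S18 to S26. There the mean slopes of the MS groups were 0.065, 0.055 and 0.14 in Tph2+/+, Tph2+/- and Tph2-/- mice, against -0.037, -0.022 and -0.054 in S27 to S41, and the MS groups averaged 15.4 (Tph2+/+, n = 3), 15.0 (Tph2+/-, n = 2) and 17.7 CPM (Tph2-/-, n = 3) against 11.8, 11.97 and 11.5 in S27 to S41. Without S18 to S26 the MS difference was -0.02, and with the slope as a covariate 0.02.

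**Figure D5:**
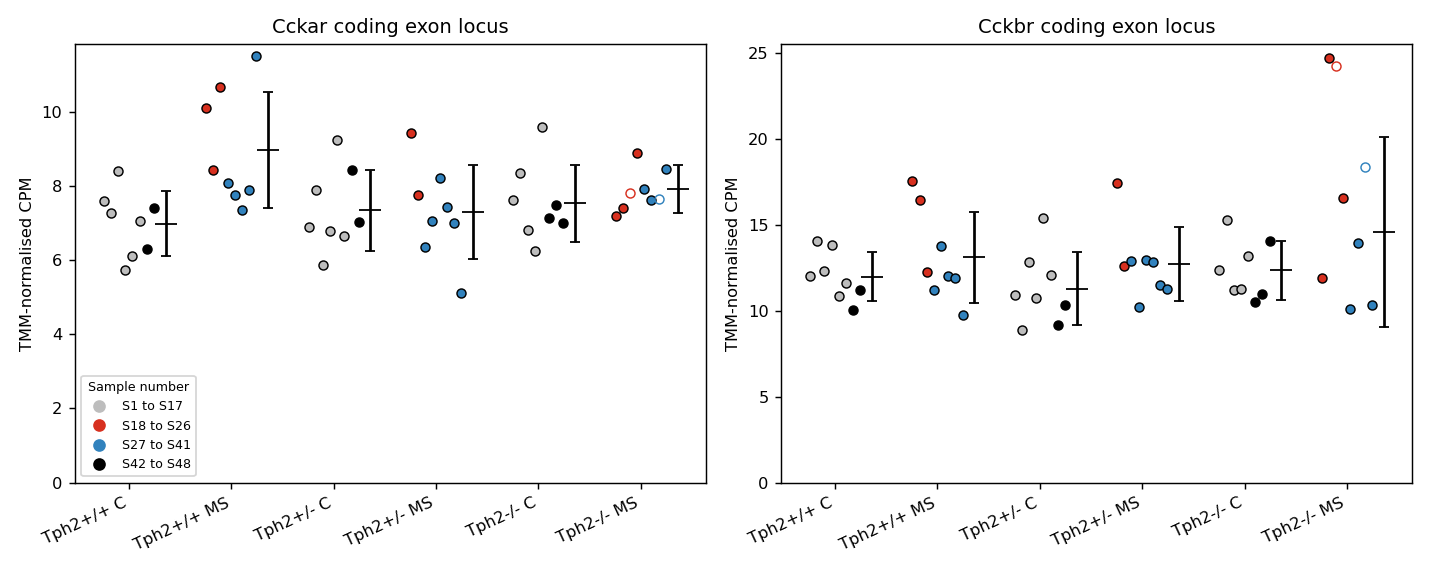
Level of the Cckar coding exon locus and of the Cckbr locus in every library (TMM-normalised CPM), coloured by sample number, with mean ± SD beside each group; open points are libraries left out. At the Cckbr locus the MS libraries S18 to S26 have higher means (15.0 to 17.7 CPM) than S27 to S41 (11.5 to 11.97), with single libraries from 11.9 to 24.8 CPM; at the Cckar locus Tph2+/+ MS averaged 8.96 CPM.

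The pathway beyond the receptors was read in a list of 19 genes for peptide processing, sulfation, amidation and breakdown and for receptor signalling. Loci overlapped 15 of these genes, and none overlapped Gast, Pcsk1, Cpe and Tpp2. Over 8 contrasts, 18 of 1744 tests passed the limits, 9 higher and 9 lower, which is 1.03% against 1.21% over all loci. At an unadjusted p under 0.05, 111 of the tests passed in edgeR (6.36%, against 5.61% over all loci), and 120 in DESeq2 (6.88%, against 6.09%). At an adjusted p under 0.05 none passed in edgeR and 1 passed in DESeq2, for MS over genotypes, which is 0.459% of the list's loci against 0.653% of all loci.

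Taken contrast by contrast, 1 locus of the list passed for GE1 (0.459%, against 0.626% of all loci), 2 for GE2 (0.917%, against 0.558%), 5 for MS over genotypes (2.29%, against 3.63%), 3 for MS in Tph2+/+ (1.38%, against 1.31%), 2 each for MS in Tph2+/- (against 0.779%) and Tph2-/- mice (against 1.48%), 2 for Tph2+/- (against 0.546%) and 1 for Tph2-/- (against 0.748%) in comparison with Tph2+/+. The median log2 differences of the list lay between -0.04 and 0.04 in the 8 contrasts.

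Among processing genes, Pcsk2, which encodes a convertase that cuts neuropeptide precursors, held the locus of smallest p for GE1 and for MS over genotypes. At its coding exon locus (chr2:143813272-143814008, 20 CpG) GE1 was 1.08 (SE 0.36). Means were 2.13 ± 0.96 and 1.58 ± 0.53 CPM in Tph2+/+ C and MS and 1.42 ± 0.60 and 2.26 ± 0.83 in Tph2+/- C and MS (SD, n = 8 each). At its intronic locus (chr2:143725537-143726944, 52 CpG) the MS difference over genotypes was 0.54 (SE 0.16, adjusted p = 0.17 in edgeR). The MS groups had 14.8 ± 7.30 (Tph2+/+), 13.97 ± 5.59 (Tph2+/-) and 17.2 ± 10.1 CPM (Tph2-/-). The C groups had 11.4 ± 2.48, 9.50 ± 2.15 and 10.5 ± 3.15 (SD, n = 8 each, 6 in Tph2-/- MS), so the spread was wider in MS. This intronic locus is the one that passed in DESeq2 (adjusted p = 0.033). In edgeR its adjusted p was 0.97 without S18 to S26, where the difference was 0.09, and 0.78 with the CpG slope as a covariate, where it was 0.15. Pcsk5, a related convertase, had a coding exon locus (chr19:17451993-17452941) with a log2 difference of 0.51 (SE 0.16) between Tph2+/- and Tph2+/+ mice. Tpst1, which adds the sulfate that CCKAR favours, held the locus of smallest p for GE2 and for MS in Tph2-/- mice (chr5:130135549-130137243, 48 CpG). GE2 there was 0.75 (SE 0.22), and the MS difference in Tph2-/- mice was 0.44 (SE 0.16), from 4.43 ± 0.96 (SD, n = 8) to 6.06 ± 1.45 CPM (SD, n = 6). GE2 also holds a lower mean after MS in Tph2+/+ mice, 5.35 ± 1.02 CPM in C and 4.35 ± 0.65 in MS. In Tph2+/- mice the means were 4.96 ± 0.87 in C and 4.29 ± 0.66 in MS (SD, n = 8 in each of these groups).

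Among signalling genes, Gnaq, the G protein subunit that both receptors use, had an intronic locus (chr19:16164285-16165225) that also overlaps exons of Gm53055 and E030024N20Rik. There Tph2+/+ mice had 2.86 ± 0.27 CPM after C rearing and 1.82 ± 0.26 after MS (SD, n = 8 each). The log2 difference was -0.64 (SE 0.20, adjusted p = 0.75 in edgeR). Itpr1, the calcium release channel downstream of Gnaq, had a coding exon locus (chr6:108493484-108494269) with an MS difference in Tph2+/- mice of -0.62 (SE 0.21). Its locus in an intron (chr6:108523960-108524909), which also overlaps an exon of Gm44040, had a difference of 0.41 (SE 0.15) between Tph2-/- and Tph2+/+ mice. Counts at the Gnaq locus and at this Itpr1 locus cannot be assigned to a single gene. Each of these 8 values passed the study's limits and none an adjusted p of 0.05 in edgeR.

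Among all loci with a mean count of at least 10, the 5 whose levels over 46 libraries were most like those of the study's locus had Pearson's r of 0.57 to 0.61. They lay 4212 bp from Gm34481 (chromosome 10), in Zc3hav1 (chromosome 6), in Ccdc152 (chromosome 15), in Xylb (chromosome 9) and in Gm5388 (chromosome X). Of 187619 loci compared, 95% had r between -0.29 and 0.29, and none of the 5 was a member. The 5 were picked as the highest of all these values, so their r is a description and was not tested.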

How the data were processed

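MBD-sequencing was performed on the amygdala of 48 mice in 6 groups of 8. The authors mapped 50 bp read pairs to GRCm38 with Bowtie2 2.1.0, called peaks with MACS, merged them over libraries and counted reads with DiffBind 2.0.9, and the deposited table holds these raw counts per locus. All 48 columns matched a sample, and how duplicate reads were treated was not given in the sources used here.

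Here, counts of all 187695 loci were fitted with edgeR 4.0.16 in R 4.3.3 (TMM, trended dispersion, robust quasi-likelihood fit, 1 term per group) in 46 libraries, with 8 contrasts and Benjamini-Hochberg adjustment over all loci. The study left out 2 Tph2-/- MS libraries without naming them, and the 2 of lowest total stood in for them. Genes were assigned from RefSeq. Loci with group values were the study's locus, the locus of highest level and of smallest p in each neighbourhood, and members past the limits, plus for the pathway list the locus of smallest p per contrast; others are said to be chosen after their values were seen. Members, lists and alternatives were chosen with earlier results of these data known. The fit was tested on simulated data. Alternatives included DESeq2 1.42.0. Capture by the MBD favours dense CpG, and a difference in its stringency between libraries moves loci by their CpG number. Each library is 1 mouse, and p-values rest on the spread between mice, with a trend shared over loci. MS was assigned to whole litters. Litters were not in the labels, so no fit holds a litter term and the p-values treat littermates as independent.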

Additional observations from a re-analysis of the deposited data

Results flagged for a closer look

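Of 96 groups of values (16 loci in 6 groups), 4 held a library far from the others, with a gap to the nearest library above the critical value of Dixon's test for that group size. Chance flags about 1 in 20 groups. At the Trak1 coding exon locus (chr9:121472048-121473244), Tph2+/+ C replicate 6 stood at 1.81 CPM, below the other 7 at 3.71 to 5.03. At the study's locus, Tph2+/- C replicate 4 stood at 2.89 CPM, above the others at 0.72 to 1.68, and without it the GE1 difference of group means was 1.18. At the Cck coding exon locus, Tph2-/- C replicate 1 stood at 4.35 CPM, above the others at 0.87 to 2.21. At the Cckbr locus, Tph2+/- MS replicate 1 (S22) stood at 17.4 CPM, above the others at 10.2 to 12.98.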

How the results depend on the processing

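Over 9 alternatives (all 48 libraries, Tph2-/- MS without replicates 2 and 3 but with 7, DESeq2 size factors, DESeq2's Wald test, a low-count filter, a covariate for S42 to S48, without S18 to S26, the CpG slope as a covariate, and the replicate number as a block), the GE1 value of the study's locus ranged from 1.02 to 1.15 and its GE2 value from 0.66 to 1.08. The study's locus was picked for its GE1 value in these same libraries. Its GE1 and GE2 values in this section are therefore descriptions and give the choice no support. Without S18 to S26, the count of members past the limits for GE2 became 1 (the Cck coding exon locus), beside 1604 of all 187695 loci. That for MS in Tph2+/+ mice became 0, beside 1833 of all loci. In the main fit these calls over all loci were 1048 and 2465. The MS difference of the Cckbr locus over genotypes turned to -0.020 without S18 to S26. The cause was not tested. With each GE1 library left out in turn, an alternative chosen after seeing the data, the difference of group means ranged from 0.91 to 1.18. The number of pathway tests past the limits ranged from 13 (CpG slope as a covariate) to 25 (all 48 libraries). Calls over all 187695 loci also moved between these settings, from 2603 to 10861 for MS over genotypes and from 1703 to 1029 for GE1. In edgeR the MS difference of the study's locus in Tph2-/- mice ranged from 0.020 with all 48 libraries to 0.36 without S18 to S26, was 0.18 with the CpG slope and passed the limits in none of the 9 alternatives. In the permutation test of these mice, a pseudocount of 1 gave a difference of 0.07 (exact p = 0.71), and all 48 libraries gave 0.033 (exact p = 0.90). Deviations of libraries with the same replicate number had correlations of -0.16 to 0.24 (median 0.013). Those with other replicate numbers had -0.31 to 0.35 (median -0.00099). The numbers thus showed no sign of a pairing, but this check cannot exclude that some of these mice shared a litter. With the replicate block, the GE1 value was 1.03 and 1 member passed the limits for GE1 and 1 for MS in Tph2+/+ mice, as without it. Beside these, 1183 and 2623 of all 187695 loci passed with the block. About 17 counts per library at the study's locus limit it to large differences.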
